A study of Mus musculus with 12 samples.

Results

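The libraries labelled Lyz2Cre-BHLHE40-Fl were compared with the libraries labelled Lyz2Cre after lipopolysaccharide (LPS) treatment of mouse peritoneal macrophages, over every gene with a value of at least 1 in 3 or more of the 6 LPS libraries. This rule took 18293 of the 53465 genes in the deposited table. The series holds 12 RNA-seq libraries in 4 groups of 3, labelled Lyz2Cre control, Lyz2Cre LPS, Lyz2Cre-BHLHE40-Fl control and Lyz2Cre-BHLHE40-Fl LPS. All were labelled as peritoneal macrophages of C57BL/6 mice of postnatal week 10, and both genotype labels carry Lyz2Cre. Lyz2Cre is a Cre recombinase placed in the lysozyme 2 gene and made in macrophages, monocytes and neutrophils, so an allele that depends on it can be altered in these cells and not in other cells of the cavity. The labels do not spell out Fl, and neither the LPS dose nor its duration is given in the sources used here. Nothing in them says that the 3 replicates of a group came from separate animals. The p-values therefore rest on the spread between libraries alone, which may be technical. A value is the number of reads of a gene divided by 1 factor per library, as deposited, so levels are compared between libraries and not between genes of different length.

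BHLHE40 is a basic helix-loop-helix repressor that binds E-box sequences and is known from the circadian clock, from hypoxia and from cytokine control in T cells and macrophages, where it represses Il10. LPS of Gram-negative bacteria is sensed by TLR4 with CD14. TLR4 signals through MyD88 to NF-kB and AP-1, which drive cytokine and chemokine genes, and through TRIF to interferon beta, which drives interferon-stimulated genes. Activated macrophages also raise glycolysis, make nitric oxide through NOS2 and itaconate through ACOD1, and form prostaglandin E2 through PTGS2 and PTGES. The peritoneal cavity holds large resident macrophages that depend on GATA6, small macrophages of monocyte origin, B and T lymphocytes, mast cells and a lining of mesothelium.

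The RNA of the targeted gene did not separate the labels. Bhlhe40 (ENSMUSG00000030103, chromosome 6 from 108660629 to 108666925, plus strand, GRCm38) stood at 2544, 2212 and 2644 in the Lyz2Cre LPS libraries and at 1956, 2415 and 2327 in the LPS libraries labelled Lyz2Cre-BHLHE40-Fl, and the groups overlapped. The log2 difference, -0.15 ± 0.08 (SE), was not called (limma adjusted p = 0.201) and turned positive with equal library totals and with quantile normalization. Loss of single exons would not be visible in a count of the whole gene, so a partial deletion is not checked by it. Groups are named here by their labels, and every direction below is that of the BHLHE40-Fl-labelled libraries relative to Lyz2Cre, with LPS unless stated. Where values are set against each other, those of the Lyz2Cre libraries come first. Each LPS library held 20489417 to 27537280 reads assigned to genes. Mitochondrial transcripts took 0.486 to 0.600% of the reads in the Lyz2Cre LPS libraries. In the BHLHE40-Fl-labelled LPS libraries they took 0.756% in replicate 1 and 1.92% and 1.89% in replicates 2 and 3. These shares count all mitochondrially encoded genes and not only those of proteins. The summed value of the 7 measured protein genes overlapped between the labels, at 112310 to 121650 against 101290 to 123220.

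With LPS the labels differed in a large share of the genes measured. The leading principal component of the 6 LPS libraries held 62.72% of the variance and separated the labels. A limma model on log2(value + 1) called 3606 of the 18293 genes higher in the BHLHE40-Fl-labelled libraries (19.7%) and 4025 lower (22%) at a Benjamini-Hochberg adjusted p below 0.05, or 41.7% in either direction. Of these, 1570 (8.58%) were at least 2-fold higher and 1591 (8.7%) at least 2-fold lower, and 275 and 221 passed 8-fold. The values of the groups did not overlap in 51.3% of the genes. The rule admitted 164 genes only through the Lyz2Cre LPS libraries and 271 only through the BHLHE40-Fl-labelled ones. Such genes had to differ to be admitted, and 386 of them were called. Just inside the rule, 1416 genes reached 1 in exactly 3 libraries (median of their mean values 1.13), and just outside it 1909 reached 1 in exactly 2 (median 0.6).

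The split between higher and lower depends on the scaling. The deposited values summed to 36738100 to 38095800 per Lyz2Cre LPS library and to 30440800 to 31416600 per BHLHE40-Fl-labelled LPS library. With all libraries brought to equal totals the median log2 difference of all 18293 genes moved from -0.02 to 0.24, the calls became 6204 higher (33.9%) and 2237 lower (12.2%), and the share of calls that were higher went from 47.3% to 73.5%. Most gene lists are therefore given with their median under both scalings, and mostly with both counts where the balance moved. The medians are to be read against -0.02 for the deposited scaling and 0.24 for equal totals. The list counts are to be read against 19.7% higher and 22% lower of all genes for the deposited scaling. With equal totals these shares were 33.9% and 12.2%. For some short lists only counts with the deposited scaling are given.

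**Figure D1:**
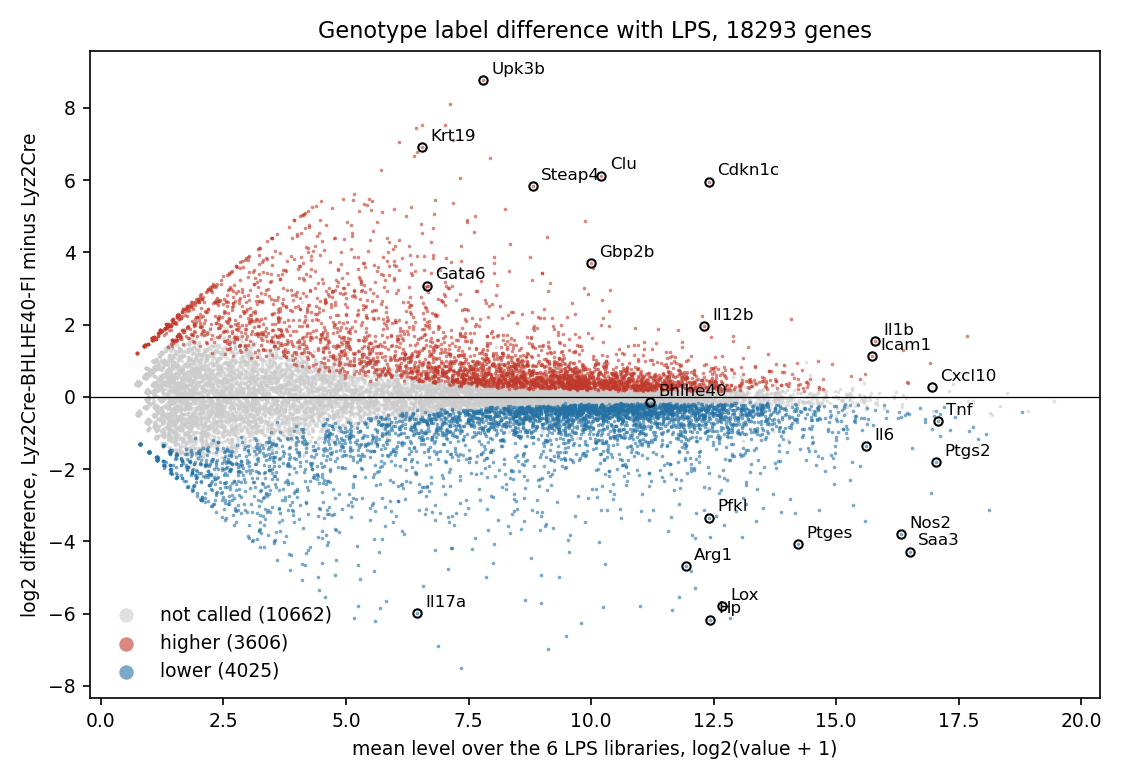
Log2 difference between the genotype labels with LPS (vertical axis) against the mean level over the 6 LPS libraries, log2(value + 1) (horizontal axis), with 1 point per gene, red where called higher, blue where called lower and grey where not called. Nos2, Saa3, Ptges and Hp lie at log2 differences of -3.81 to -6.17, Upk3b at 8.76, and Il1b, Il12b and Icam1 between 1.12 and 1.95.

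Genes of mesothelium and connective tissue were far higher in the BHLHE40-Fl-labelled libraries and are kept apart from the macrophage genes. Of 68 measured markers of these cells, 53 were higher and 5 lower (median log2 difference 2.48, and 2.61 with equal totals). Upk3b, a uroplakin of mesothelium (ENSMUSG00000042985, chromosome 5 from 136038496 to 136046487, plus strand, GRCm38), was at 0 in all 3 Lyz2Cre LPS libraries and at 339, 419 and 574 in the BHLHE40-Fl-labelled ones, at least 308-fold higher against a floor of 3 reads over the group. Pkhd1l1 and Upk1b were likewise at 0 in all 3 Lyz2Cre LPS libraries and at 250 to 298 and 162 to 185. The rule admitted 11 of the 68 genes through 1 label's LPS libraries alone, these 3 among them, so such genes had to differ. Lrrn4, another mesothelial gene, was at 0, 0 and 1.6 against 272, 193 and 307. The mesothelial genes Msln and Krt19 had at most 2.8 in any Lyz2Cre LPS library and 55.1 to 63.2 and 175 to 195 in the other group. Wt1, a transcription factor of mesothelium, stood at 23.6, 12.4 and 6.2 against 160, 207 and 245. The fibrillar collagen gene Col1a2 had a mean of 1521 against 5483. The summed value of the 68 genes ranged from 18889 to 20922 in the Lyz2Cre LPS libraries and from 32284 to 39116 in the BHLHE40-Fl-labelled ones. The list also differed without LPS, with 58 of the 68 higher and 2 lower. What part these cells have in the differences described below was not tested.

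Genes of T lymphocytes, among them those of gamma delta T cells, went the other way. Of 37 T cell markers, 28 were lower and 3 higher (median -2.36, and -2.04 with equal totals). The rule admitted 3 of the 37 through 1 label's LPS libraries alone, so these had to differ. Il17a, the cytokine of type 17 T cells, stood at 183, 163 and 166 in the Lyz2Cre LPS libraries and at 0, 3.1 and 3.8 in the others, 74.3-fold lower. The constant chain Trdc of the gamma delta receptor stood at 37.5, 30.3 and 32.7 against 0, 1.5 and 0, and the receptor subunit Cd3g at 20.8, 24.8 and 32.7 against 1.2, 0 and 0. The groups did not overlap in these genes. Icos, a costimulatory receptor of T cells, was 17.9 to 23.6 against at most 1.5. Il23r, the receptor of interleukin 23, was 471 to 512 against 73.6 to 94.8. The 3 that were higher were the kinase Lck (mean 374 against 1133), the adaptor Lat and the transcription factor Tcf7 (means of 2.9 and 11, not called when Lyz2Cre LPS replicate 2 or the other label's replicate 2 or 3 was omitted, limma adjusted p of 0.0948, 0.0639 and 0.0573). Lck was not accompanied by Cd3e, which was at 0 in all 3 BHLHE40-Fl-labelled LPS libraries. The summed value of the 37 genes was similar under both labels, at 12212 to 12731 and 12692 to 13455, and Il7r made up most of it (means of 10202 and 10935, limma adjusted p = 0.381). Il7r was called higher with equal totals and with quantile normalization (limma adjusted p of 0.000572 and 0.000973).

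Most markers of B cells, NK cells and neutrophils were lower, and those of mast and dendritic cells were not. Of 20 B cell markers 12 were lower and 1 higher (median -1.39, and -1.11 with equal totals, and 7 lower without Lyz2Cre LPS replicate 1 or with equal totals), with the IgM heavy chain Ighm at 1918, 2367 and 2222 against 117, 126 and 155 and the kappa chain Igkc at 532 to 700 against 37.6 to 55.2. The factor Spib was the gene that was higher (6.25-fold). All 10 called genes of the 12 NK and innate lymphoid markers were lower, among them the receptor subunit Il2rb (86.9 to 117 against 2.5 to 12.3) and the cytotoxic genes Gzmb and Prf1. This count fell to 7 without any 1 Lyz2Cre LPS library, and was 8 to 10 without 1 BHLHE40-Fl-labelled LPS library. It was 8 with equal totals, 5 with edgeR and 6 with DESeq2. Through 1 label's LPS libraries alone 3 of the 12 were admitted, so these had to differ. Of 8 neutrophil markers 5 were lower and Csf3r was higher (median -2.67, and -2.35 with equal totals). The rule admitted 2 of the 8 through 1 label's LPS libraries alone, so these had to differ. Mmp8, a collagenase of neutrophils, stood at 14596, 14447 and 14181 against 198, 213 and 207, while the neutrophil genes Ly6g and Elane were at 0 in all 6 LPS libraries. Camp and Ngp, granule proteins of maturing neutrophils, had 114 to 174 and 16.7 to 28 against at most 11.3 and 0. Of 10 mast cell markers 3 were lower, among them the proteases Cma1 and Tpsb2, and histidine decarboxylase, Hdc, which macrophages also induce, was higher, at 1113 to 1146 against 4065 to 4261. Of 9 dendritic cell markers 3 were lower and 3 higher (median -0.04, and 0.24 with equal totals), with Batf3 5.66-fold higher and Flt3 and Ccr7 lower. Of 4 eosinophil markers 1 was lower. Of the 10 mast cell and the 4 eosinophil markers, 1 each was admitted through 1 label's LPS libraries alone and had to differ. In a bulk library fewer cells of a type and less RNA per cell cannot be told apart.

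**Figure D2:**
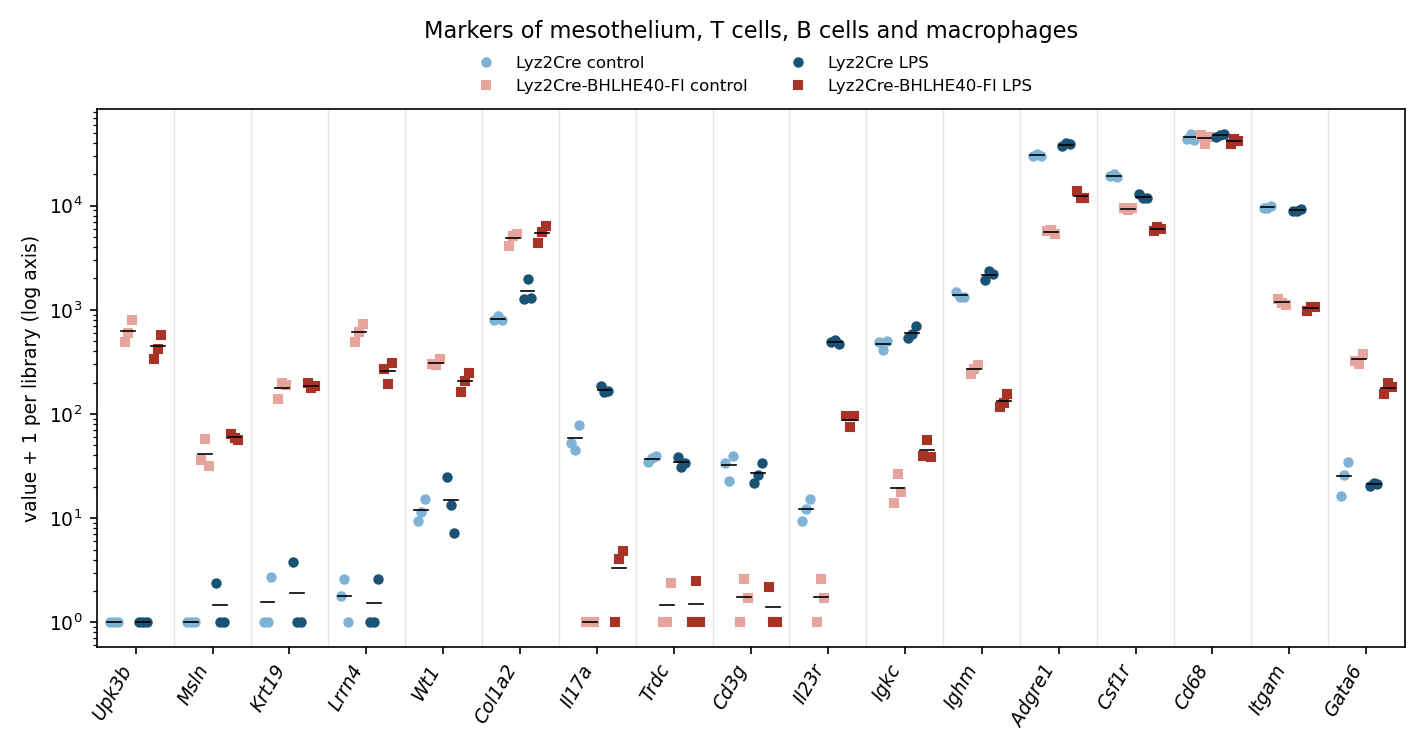
Value + 1 in each of the 12 libraries on a log axis for markers of mesothelium and connective tissue, T cells, B cells and macrophages; circles are Lyz2Cre and squares Lyz2Cre-BHLHE40-Fl, pale for control and dark for LPS, and black bars are group means. Upk3b is at 0 (drawn at 1) in all 6 Lyz2Cre libraries and at 339 or more in all 6 BHLHE40-Fl-labelled ones, Il17a goes the other way, and the macrophage gene Cd68 has similar values in all groups.

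General macrophage genes were measured at high values under both labels, and most were lower in the BHLHE40-Fl-labelled libraries. Of 20 general markers 14 were lower and 0 higher (median -0.62, and -0.33 with equal totals, under which 11 were lower and 3 higher). Adgre1, which encodes F4/80, stood at 37078, 39565 and 38814 against 13872, 11833 and 11736. The integrin gene Itgam, which encodes CD11b, stood at 8807, 8975 and 9270 against 983, 1070 and 1054, 8.7-fold lower. These genes were clearly separated in every library. Csf1r, the receptor of macrophage colony-stimulating factor, was 2.04-fold lower, the inhibitory receptor Sirpa 2.94-fold and the calcium-binding protein Aif1 13.2-fold. Cd68, a lysosomal protein of macrophages, had means of 47261 and 41444 and was not called (limma adjusted p = 0.0998), nor was Spi1, which encodes PU.1. Spi1 was called higher with equal totals and with quantile normalization (limma adjusted p of 0.00859 and 0.0276). Lyz2, the gene of the Cre locus, stood at 966, 916 and 1028 against 831, 779 and 696 (log2 difference -0.34 ± 0.12, limma adjusted p = 0.0345), which did not hold when Lyz2Cre LPS replicate 1 or 3, or replicate 2 or 3 of the other label, was omitted (limma adjusted p of 0.0776, 0.124, 0.0676 and 0.15), nor with equal library totals. Lyz2 has a near-identical copy, Lyz1, so its value is uncertain.

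Genes of the peritoneal macrophage types did not move as a block. Of 28 markers of large resident macrophages 11 were lower and 7 higher (median -0.60, and -0.32 with equal totals). Gata6, the factor that sets the resident programme, stood at 19.5, 20.7 and 20.2 in the Lyz2Cre LPS libraries and at 156, 199 and 180 in the others, 8.86-fold higher. Mesothelium is also known to express Gata6, and the mesothelial genes were higher in the same libraries. Pf4, the chemokine platelet factor, stood at 6743, 7344 and 6640 against 154, 124 and 167, and the scavenger receptor Marco at 827, 847 and 820 against 28.1, 49.1 and 36.3. Prg4 was lower as well (47.2 to 52.9 against 2.3 to 3.8), and so was the matrix protein gene Thbs1 (5.35-fold). Of 18 markers of monocytes and small macrophages 10 were lower and 2 higher (median -1.25, and -0.96 with equal totals). The rule admitted 1 of the 18 through 1 label's LPS libraries alone, so it had to differ. Cx3cr1, the fractalkine receptor of monocytes, was 37.2 to 43.1 against at most 1.3, and the transglutaminase subunit F13a1 was 24.2-fold lower. Ly6c2 was 104-fold lower, but it belongs to a family of near-identical genes and is uncertain.

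Inflammatory effector enzymes and acute-phase genes were mostly lower. Of 29 measured genes 23 were lower and 4 higher (median -1.49, and -1.20 with equal totals). Nos2, the inducible nitric oxide synthase (ENSMUSG00000020826, chromosome 11 from 78920787 to 78960254, plus strand, GRCm38), stood at 155110, 143290 and 159930 against 8980, 12224 and 11804. It was 13.9-fold lower (log2 difference -3.81 ± 0.25, limma adjusted p = 1.33e-09), and every Lyz2Cre library lay far above every BHLHE40-Fl-labelled one. Ptgs2, the inducible cyclooxygenase, stood at 187270, 219280 and 222310 against 63790, 60278 and 54948, 3.51-fold lower. Ptges, the prostaglandin E synthase that acts after it, stood at 35308, 36174 and 36151 against 2041, 2177 and 2154, 16.9-fold lower. Neither gene overlapped between the groups. Serum amyloid Saa3 was 162090 to 187440 against 8710 to 9627, haptoglobin Hp was 71.4-fold lower, and the siderophore-binding Lcn2 was 28.4-fold lower. Acod1, the itaconate enzyme, kept high levels under both labels, at 291910, 297190 and 286230 against 172130, 162230 and 158890 (log2 difference -0.83 ± 0.26, limma adjusted p = 0.0166). Its call was lost with equal totals, quantile normalization, robust variances and without BHLHE40-Fl-labelled LPS replicate 3 (limma adjusted p = 0.106, 0.568, 0.11 and 0.052). Arg1, which uses the same substrate as NOS2, was lower too, at 7669, 8279 and 6571 against 289, 278 and 299, and so was the arginine-supplying enzyme Ass1 (8.52-fold). The higher genes included tissue factor F3 (2.36-fold) and coagulation factor F10 (1.48-fold), which act in coagulation, and Hdc.

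Cytokine genes split into a lower and a higher set. Of 27 measured, 10 were lower and 7 higher (median -0.01, and 0.28 with equal totals, under which 9 were lower and 10 higher). Inhba, the activin A subunit, stood at 89541, 82481 and 98433 against 6940, 9100 and 9046, 10.8-fold lower. Il6 (ENSMUSG00000025746, chromosome 5 from 30013114 to 30019981, plus strand, GRCm38) stood at 67177, 74013 and 73561 against 31130, 26253 and 25977, which was lower by a log2 difference of -1.37 ± 0.24 (limma adjusted p = 0.00019). Tnf was 163710 to 173580 against 104900 to 110090, 1.58-fold lower. The groups did not overlap in either gene, and Tnf was not called after quantile normalization (limma adjusted p = 0.163). Ifnb1, the gene of interferon beta, stood at 413, 895 and 770 against 112, 92 and 80.1, 7.3-fold lower. Il10, the anti-inflammatory cytokine gene, stood at 428, 754 and 781 against 166, 107 and 146, 4.67-fold lower. Without LPS it had the opposite order, with means of 5.87 and 25.8, and the interaction was called (log2 difference -4.1, limma adjusted p = 1.35e-06).

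The higher cytokine genes included Il1b and Il1a of the interleukin 1 family and the subunit genes Il12b and Il23a. Il1b (ENSMUSG00000027398, chromosome 2 from 129364570 to 129371139, minus strand, GRCm38) stood at 26143, 30749 and 29658 against 90526, 81874 and 80180. It was 2.92-fold higher (log2 difference 1.55 ± 0.41, limma adjusted p = 0.00634), and the lowest BHLHE40-Fl-labelled library was above the highest Lyz2Cre one. With robust variances the call was lost (limma adjusted p = 0.0709). Il1a was 76951 to 91574 against 155120 to 168080. Il12b, the p40 subunit gene (ENSMUSG00000004296, chromosome 11 from 44400063 to 44414033, plus strand, GRCm38), stood at 1808, 2119 and 2308 against 8454, 8094 and 7451, 3.85-fold higher. Its partner in interleukin 23, Il23a, stood at 129, 145 and 166 against 385, 419 and 511, while its partner in interleukin 12, Il12a, was lower (means of 11302 and 5563). With a pseudocount of 0.1 Il23a was not called (limma adjusted p = 0.222). Il33, known from stromal and mesothelial cells as well, was 26.4 to 62.1 against 116 to 172, and Csf1 was 1.71-fold higher. Il1rn, the receptor antagonist, and Il18 were not called (limma adjusted p = 0.0629 and 0.139), though Il1rn was when Lyz2Cre LPS replicate 1 was omitted (limma adjusted p = 0.0204). Il18 was called higher with equal totals and with the LPS libraries fitted alone (limma adjusted p of 0.0037 and 0.024). It was also called higher with edgeR (edgeR adjusted p = 0.0464).

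Chemokine genes were also divided, with 9 of 23 lower and 4 higher (median -0.31, and -0.03 with equal totals, under which 7 were lower and 5 higher). Cxcl3, a neutrophil attractant, stood at 5455, 5513 and 5885 against 418, 448 and 410, 13.2-fold lower. Its neighbour in function Cxcl2 was 45012 to 52510 against 25286 to 27443, and Cxcl1 was not called (limma adjusted p = 0.263). Ccl6 was 7.1-fold lower and Ccl8, a monocyte attractant, had means of 466 and 129, and was not called when replicate 3 of either label was omitted (limma adjusted p of 0.0584 and 0.0663). Ccl22, a ligand of CCR4, stood at 232, 170 and 243 against 832, 1680 and 1547, 6.3-fold higher, and was not called with a pseudocount of 0.1 (limma adjusted p = 0.0707). Cxcl12 was 6.2 to 11 against 62 to 112 and Cxcl5 was 4.08-fold higher, and both are known from stromal cells as well. Cxcl10, an interferon-inducible chemokine, stood at 105350, 116410 and 122730 against 134980, 142130 and 138460. The groups did not overlap, but its log2 difference of 0.27 ± 0.23 was not called (limma adjusted p = 0.391). With the 6 LPS libraries fitted alone it was called higher (limma adjusted p = 0.00888).

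**Figure D3:**
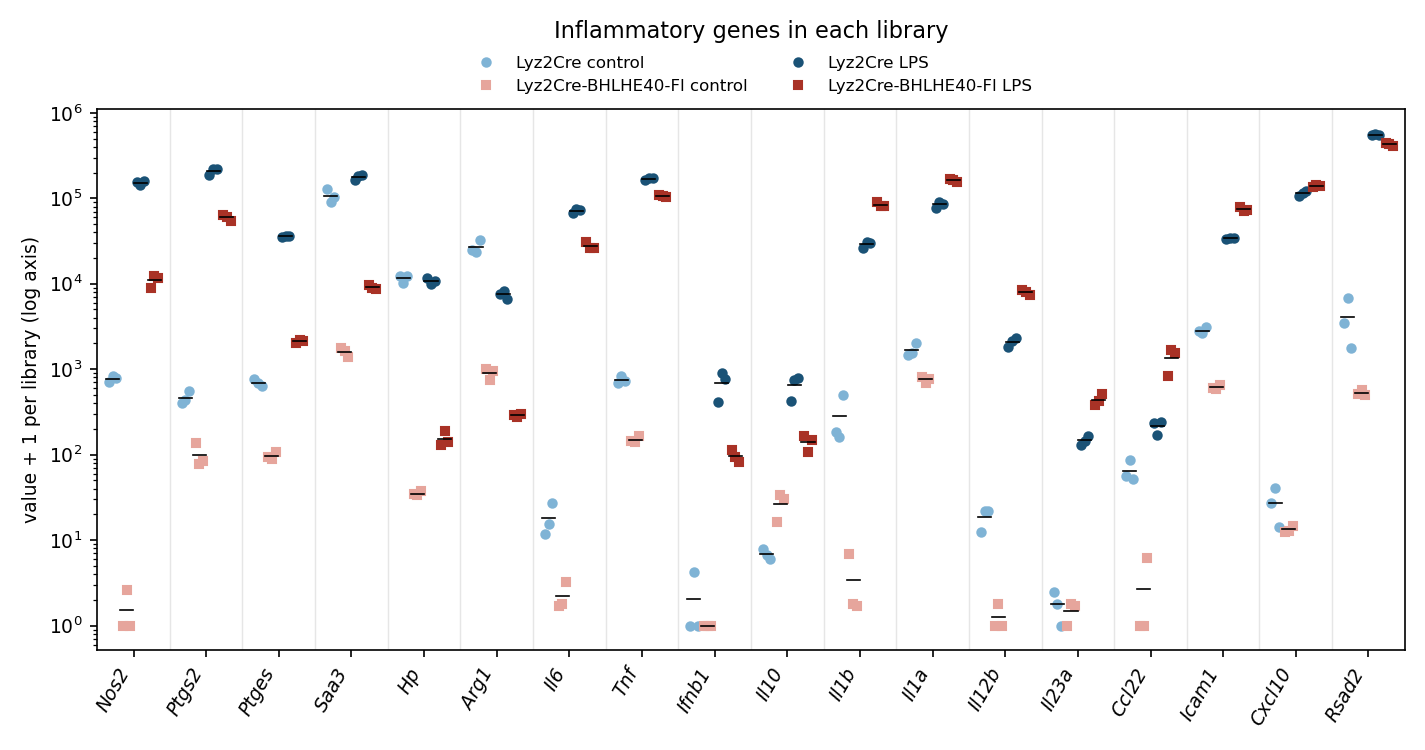
Value + 1 in each of the 12 libraries on a log axis for inflammatory genes; symbols as circles for Lyz2Cre and squares for Lyz2Cre-BHLHE40-Fl, pale for control and dark for LPS, with black bars at group means. With LPS the squares lie below the circles for Nos2 to Il10 and above them for Il1b to Icam1, whereas in controls the squares lie below the circles for nearly all of these genes, with Il10 above.

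Receptors and signalling components near the LPS receptor were mostly lower by small amounts. Of 23 genes of Toll-like receptors and their adaptors 13 were lower and 4 higher (median -0.29, and -0.01 with equal totals, under which 8 were lower and 9 higher). Cd14, the LPS co-receptor, stood at 30532, 32381 and 32748 against 12106, 11532 and 12380. Tlr4 stood at 4552, 4789 and 4464 against 4330, 3682 and 3658, a called log2 difference of -0.25 ± 0.07 whose sign turned with equal totals and which was not called when Lyz2Cre LPS replicate 2 or the other label's replicate 2 or 3 was omitted (limma adjusted p of 0.063, 0.0672 and 0.0728). The adaptor Myd88 was not called, and Irak3, which restrains the pathway, was 2.57-fold lower. Myd88 was called higher with equal totals and with quantile normalization (limma adjusted p of 0.00105 and 0.00478). Tlr13 and Tlr9, endosomal receptors of bacterial RNA and DNA, were 3.47-fold and 2.76-fold lower. The list of NF-kB components and feedback genes had 8 of 23 higher and 4 lower (median 0.07), with 2 lower without Lyz2Cre LPS replicate 3 or BHLHE40-Fl-labelled LPS replicate 2. With equal totals 16 were higher and 2 lower (median 0.35). Nfkbia, the inhibitor that NF-kB itself induces, stood at 20138, 21571 and 22894 against 19342, 22066 and 23721 and the groups overlapped. It was called higher with equal totals and with quantile normalization (limma adjusted p of 0.0152 and 0.0138). Bcl3, a nuclear NF-kB cofactor, was 2.03-fold higher, Cish, a suppressor of STAT5 signalling, 2.05-fold higher (not called when replicate 2 or 3 of that label was omitted, limma adjusted p of 0.0542 and 0.0722), and Traf1 2.06-fold lower. The early transcription factors of the AP-1, EGR and NR4A families had 8 of 23 higher and 3 lower (median 0.21, and 0.49 with equal totals, under which 12 were higher and 1 lower). Among the higher were Fos (144 to 188 against 394 to 426), Myc (66.9 to 107 against 165 to 347), Egr2 and Nr4a3. The mRNA decay factor Zfp36 was 2.55-fold higher.

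Costimulatory and adhesion genes gave 10 lower and 5 higher of 21 (median -0.46), but 10 lower and 9 higher with equal totals (median -0.17). Icam1, an adhesion molecule of activated macrophages, stood at 33465, 34714 and 34517 against 79608, 70885 and 72540, 2.17-fold higher. Cd38, an NAD-consuming ectoenzyme of activated macrophages, stood at 18664, 18472 and 17454 against 4418, 4190 and 4170, 4.27-fold lower. The directions of these surface genes thus differed within the list. Cd86, a ligand of CD28, was 1.69-fold lower and Slamf1 3.86-fold lower, though Slamf1 was not called with a pseudocount of 0.1 (limma adjusted p = 0.136). Of 15 inflammasome genes 12 were lower and 1 higher (median -0.46, and -0.17 with equal totals, under which 8 were lower and 2 higher), with Nlrc4, the sensor of flagellin, at 544 to 583 against 146 to 184. Nlrp3, whose inflammasome matures interleukin 1 beta, was 1.57-fold lower, while Il1b was higher.

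Interferon-stimulated antiviral genes were at very high levels under both labels with LPS, and few were called in the model over all 12 libraries. That model takes its spread from the controls too. The summed value of these genes was 86406, 139020 and 49490 in the Lyz2Cre controls and 2274800 to 2398400 in the Lyz2Cre LPS libraries. Of 40 measured, 4 were lower and 1 higher (median -0.27, and 0.01 with equal totals), with 2 lower when Lyz2Cre LPS replicate 2 or 3 or BHLHE40-Fl-labelled LPS replicate 2 or 3 was left out. Rsad2, which encodes viperin, stood at 544890, 570010 and 551510 against 442390, 429950 and 410000, and Ifit1 at 142540 to 152470 against 107450 to 113260. Neither was called, with limma adjusted p of 0.336 and 0.459, although the groups did not overlap. With the 6 LPS libraries fitted alone both were called lower (limma adjusted p = 0.00176 and 0.000303), and the list had 23 lower and 4 higher, in a fit that called 22.8% of all 18293 genes lower and 19.9% higher. The groups overlapped in Isg15 and in Irf7, the regulator that amplifies the response. Without LPS 39 of the same 40 genes were lower in the BHLHE40-Fl-labelled libraries (median -2.64), and the interaction was called for all 40. The 5 called genes with LPS were Ifi27l2a (3.92-fold lower), Ifih1, a cytosolic RNA sensor (1.51-fold lower, not called with equal totals), Parp9 and Phf11b and, in the higher direction, Trim25, a ubiquitin ligase (1.46-fold). Parp9 and Phf11b were not called when replicate 2 or 3 of either label was omitted (limma adjusted p of 0.0535 to 0.0916 and 0.0907 to 0.11). The guanylate-binding and immunity-related GTPases, which restrict intracellular microbes, had 9 of 19 lower and 2 higher (median -0.26, and 0.02 with equal totals, under which 5 were lower and 4 higher). Iigp1 stood at 33994, 38661 and 35588 against 13978, 12599 and 12027. Gbp2b went the other way, at 131, 157 and 145 against 2074, 1846 and 1754, and as a member of a tandem family with near copies its value is uncertain. Among 23 interferon regulator, STAT and JAK genes 8 were lower and 3 higher (median -0.14), and with equal totals 5 were lower and 8 higher (median 0.15). Irf8, a macrophage lineage factor, was 2.08-fold lower, Stat3 was 1.85-fold lower and Stat5a was 2.17-fold higher.

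Most called genes of MHC class II presentation, of the Fc gamma receptors and lectins and of the scavenger receptors were lower, and complement genes were divided. Of 11 genes of MHC class II presentation 9 were lower and 1 higher (median -1.61, and -1.32 with equal totals). The class II chain H2-Ab1 stood at 6308, 7284 and 7640 against 2583, 2364 and 2590, and the invariant chain Cd74 at 11357 to 14447 against 4062 to 4487. Ciita, the transactivator of the class II genes, was the gene that was higher, at 194, 199 and 182 against 538, 454 and 473. Regulator and targets thus had opposite directions. Of 21 class I genes 11 were lower and 0 higher (median -0.31), but with equal totals 9 were lower and 4 higher (median -0.02). The called genes H2-K1, H2-D1, H2-Q6 and H2-Q7 belong to a family of genes with similar sequences, and reads may be split between its members. Of 16 Fc gamma receptor and C-type lectin genes 13 were lower and 0 higher (median -1.5, and -1.22 with equal totals). Clec4e, which encodes the mycobacterial glycolipid receptor Mincle, stood at 220050, 217910 and 210820 against 38418, 32554 and 32752, and the beta-glucan receptor Clec7a was 3.39-fold lower. Clec4n, which encodes dectin-2, was 51.9-fold lower. Of 19 complement genes 11 were lower and 6 higher under both scalings (median -1.22, and -0.94 with equal totals), with C1qa at 10827, 13378 and 12716 against 1135, 971 and 1042. The C1 inhibitor Serping1 (5.67-fold) and the receptor C5ar2 (6.98-fold) were higher. Of 19 scavenger and apoptotic cell receptors 13 were lower and 2 higher (median -0.46, and -0.18 with equal totals, under which 10 were lower and 4 higher). Stab1 was 6.06-fold lower.

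**Figure D4:**
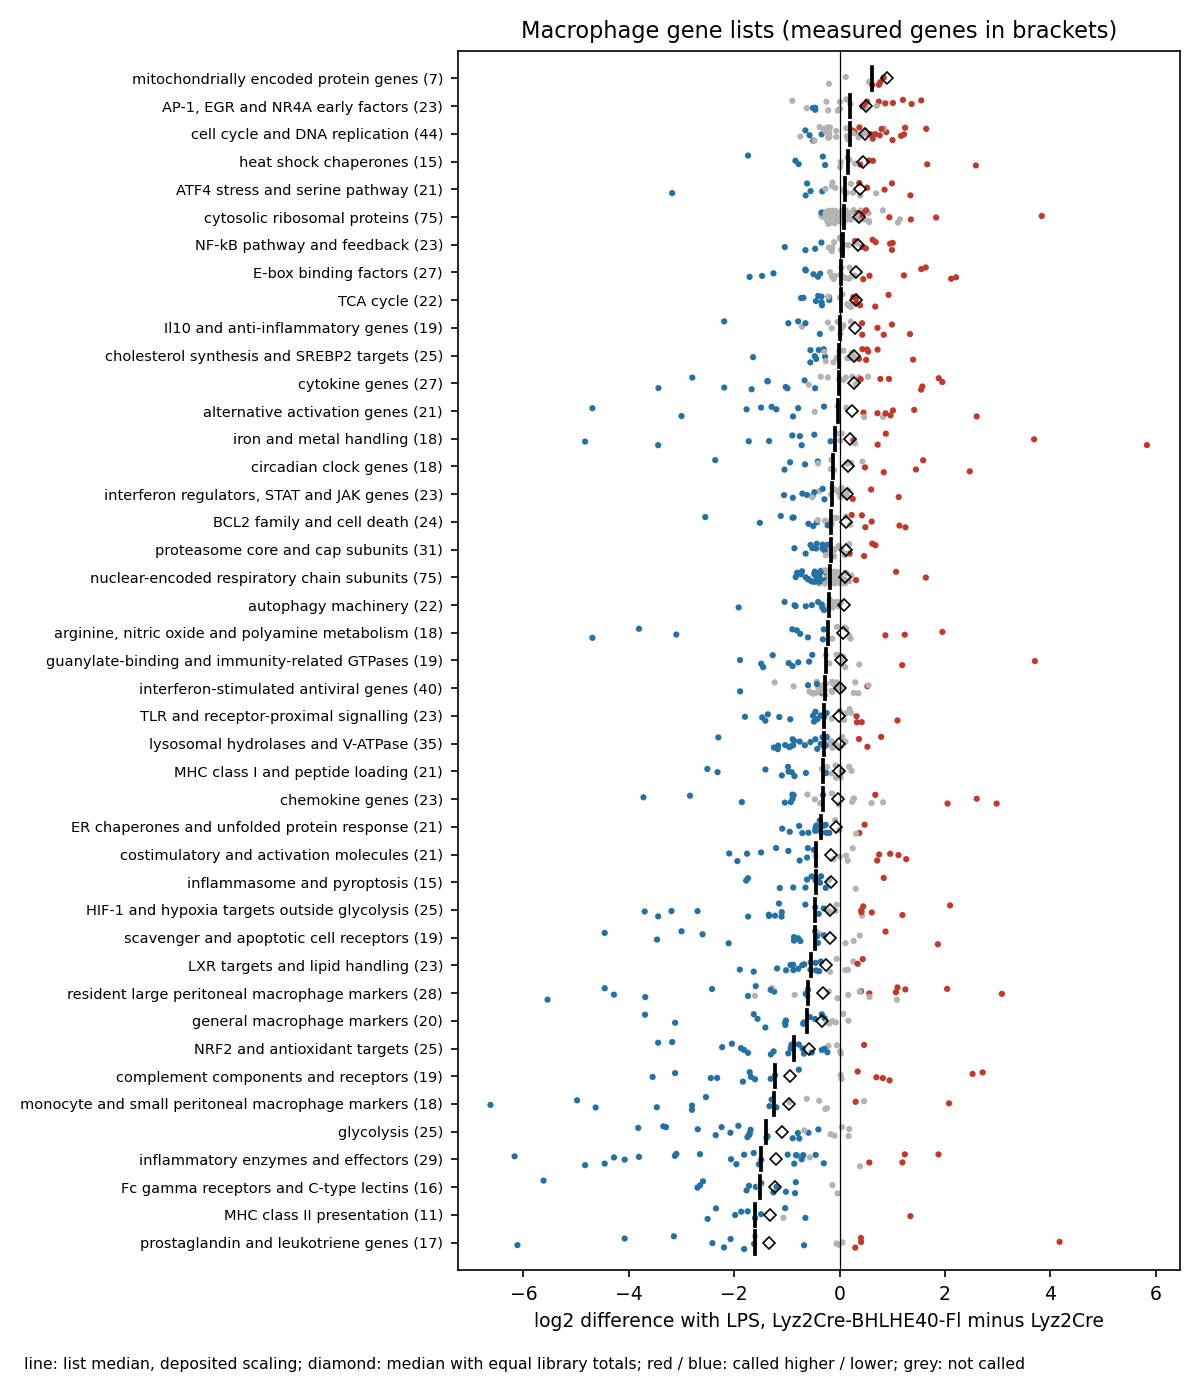
Log2 difference between the labels with LPS for the measured genes of each macrophage gene list (1 point per gene, red called higher, blue called lower, grey not called), with the list median as a black line and the median with equal library totals as an open diamond. The lists of glycolysis, inflammatory enzymes, Fc gamma receptors, MHC class II and prostaglandin genes have medians from -1.39 to -1.61, and the other lists have medians from -1.25 to 0.62.

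Glycolysis was lower at most steps from glucose uptake to lactate export. Of 25 measured genes 19 were lower and 0 higher (median -1.39, and -1.10 with equal totals, under which 18 were lower and 3 higher). The glucose transporter Slc2a1 stood at 11012, 11235 and 10808 against 2372, 2254 and 2377. Pfkl, a phosphofructokinase subunit, stood at 10385, 9730 and 9567 against 1057, 903 and 963, 10.2-fold lower (log2 difference -3.34 ± 0.07, limma adjusted p = 6.61e-16). The groups were wide apart in both. Further along the path Aldoc was 9.86-fold lower, Tpi1 5.08-fold, Pgk1 4.21-fold, Pgam1 3.75-fold, Pkm 3.26-fold and lactate dehydrogenase Ldha 3.35-fold. The lactate exporter Slc16a3, or MCT4 (ENSMUSG00000025161, chromosome 11 from 120948480 to 120960868, plus strand, GRCm38), stood at 7929, 7966 and 7874 against 680, 500 and 516, 14-fold lower. Pdk1, which turns pyruvate away from mitochondria, was 6.43-fold lower. Among the hexokinases Hk2 was 1.5-fold lower and Hk3 at 42634 to 47329 against 44892 to 49333, not called. Hk3 was called higher with equal totals and with quantile normalization (limma adjusted p of 0.00354 and 0.000835). Gapdh and Pgk1 have many processed copies in the genome and their values are uncertain. The list was also lower without LPS, where 22 of the 25 were lower and 1 higher (median -1.25).

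BHLHE40 binds the E-box CACGTG, and HIF-1 binds sites with the core ACGTG, which CACGTG contains. Promoters of some glycolysis genes are shown because many of the list hold this shared core and because 19 genes of the list were lower and 0 higher. RefSeq windows of 250 bases before to 50 after each annotated start (GRCm38.p6) were matched by symbol for 11538 of the genes and not for 6744. ACGTG, on either strand and including CACGTG, was in a window of 15 of the 24 matched glycolysis genes (62.5%), against 28.25% of the 11538 matched genes and 19.62% of all 32851 windows. CACGTG was in 4 of the 24 (16.67%), against 11.22% of the matched genes and 7.15% of all windows. The hypoxia list, described next, held ACGTG in 68.42% of its 19 matched genes, and the clock genes, of which 5 were higher and 5 lower, in 60% of 15. Among all matched genes at least 2-fold lower it was in 25.77%, and among those at least 2-fold higher in 25.24%, so the motif was not more frequent in genes with large differences. A gene with several windows counted if any held the motif. A match is a run of letters and not a measured binding site. The stretches below lie before a RefSeq start, 5′ to 3′ along the gene. ACGTG or its reverse complement CACGT is in capitals, and CACGTG is in capitals in the last pair. For Slc16a3 this start is not the gene start given above, and its stretch lies within the gene span given there. Hif1a and Bhlhe41 are not genes of the glycolysis list. Only genes with a match before a start are shown. Aldoa and Pkm, which each had a window with a match and a window without, are left out.
Slc16a3, chr11:120949020-120949066, plus strand: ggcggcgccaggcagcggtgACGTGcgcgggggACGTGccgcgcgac
Pgk1, chrX:106186930-106186993, plus strand: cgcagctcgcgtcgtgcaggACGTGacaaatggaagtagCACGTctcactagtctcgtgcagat
Slc2a1, chr4:119108689-119108733, plus strand: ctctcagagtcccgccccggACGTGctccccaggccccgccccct
Pgam1, chr19:41911737-41911781, plus strand: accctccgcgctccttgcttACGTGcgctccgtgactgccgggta
Hif1a, chr12:73907712-73907821, plus strand: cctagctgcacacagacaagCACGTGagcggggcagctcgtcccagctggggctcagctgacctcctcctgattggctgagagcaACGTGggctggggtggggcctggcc
Bhlhe41, chr6:145865548-145865593, minus strand: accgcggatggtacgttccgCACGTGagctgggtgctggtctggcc

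Hypoxia genes outside glycolysis had 15 of 25 lower and 6 higher (median -0.46, and -0.18 with equal totals). Hif1a, the oxygen-regulated subunit of HIF-1, stood at 28385, 27926 and 27026 against 13216, 13229 and 12419, 2.14-fold lower. Vegfa, the angiogenic growth factor, stood at 3666, 3759 and 3470 against 508, 552 and 625, and the mitophagy receptor Bnip3 at 925, 897 and 768 against 101, 99.7 and 81.4. The groups did not overlap in any of the 3. Ankrd37 was 14.4-fold lower. Adm, the vasodilator adrenomedullin, was higher (4.21-fold), so the list did not move in 1 direction. Antioxidant genes that NRF2 controls had 20 of 25 lower and 1 higher (median -0.87, and -0.58 with equal totals). Hmox1, the heme oxygenase, stood at 21126, 16964 and 19651 against 1409, 1963 and 1979, and the cystine transporter Slc7a11 at 27866, 25704 and 28095 against 3156, 3033 and 2841. Peroxiredoxin Prdx1 was 4.11-fold lower and Nqo1 4.92-fold lower. Txn1, a thioredoxin, was not called and its groups overlapped, but it was called higher with equal totals (limma adjusted p = 0.0389).

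**Figure D5:**
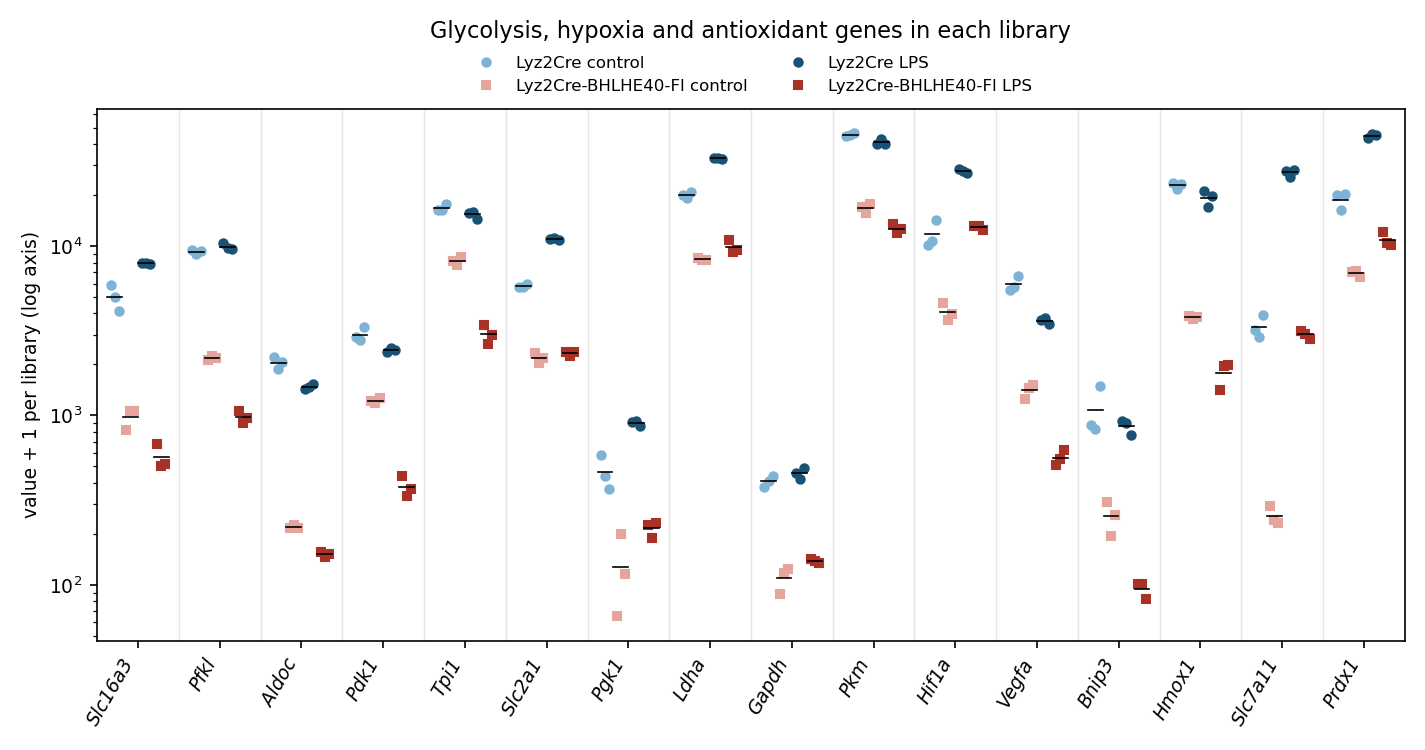
Value + 1 in each of the 12 libraries on a log axis for genes of glycolysis, hypoxia and antioxidant defence; circles are Lyz2Cre and squares Lyz2Cre-BHLHE40-Fl, pale for control and dark for LPS, with black bars at group means. In all 16 genes the dark squares lie below the dark circles, by 2.14-fold for Hif1a and 14-fold for Slc16a3, and the pale symbols show the same order.

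Lipid mediator and lipid handling genes were also mostly lower. Of 17 genes of prostaglandin and leukotriene synthesis, breakdown and reception 9 were lower and 4 higher (median -1.61, and -1.34 with equal totals). Alox5, the lipoxygenase that starts leukotriene synthesis, stood at 90.3, 70.3 and 49.8 against 0 in all 3 BHLHE40-Fl-labelled LPS libraries, at least 53.2-fold lower against the floor of 3 reads over the group. Alox5 was admitted through the Lyz2Cre LPS libraries alone, the only gene of the list admitted through 1 label, so it had to differ. Pla2g7 was 8.85-fold lower. Hpgd, which inactivates prostaglandins, stood at 4.2, 6.9 and 6.2 against 123, 96.6 and 143, 20.9-fold higher. The other higher genes were the synthases Hpgds and Ptges3 and the receptor gene Ptger4, all by less than 2-fold, and Ptger4 was not called without BHLHE40-Fl-labelled LPS replicate 3 (limma adjusted p = 0.0742). LXR targets and lipid handling genes had 16 of 23 lower and 2 higher (median -0.55, and -0.26 with equal totals, under which 13 were lower and 6 higher), with the fatty acid binding proteins Fabp4 (3.72-fold) and Fabp5 (2.02-fold) lower. The cholesterol synthesis list had 8 of 25 lower and 7 higher with LPS (median 0.00), but 3 lower and 14 higher with equal totals (median 0.28). Without LPS 22 were lower and 0 higher.

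Organelle lists differed by small amounts, and several turned with the scaling. Of 75 nuclear-encoded respiratory chain subunits 25 were lower and 3 higher (median -0.18), but with equal totals 5 were lower and 13 higher (median 0.10). Of the 7 mitochondrially encoded genes measured 4 were higher, among them mt-Cytb at 4319, 3664 and 4428 against 5038, 9392 and 8435. Without Lyz2Cre LPS replicate 1 or BHLHE40-Fl-labelled LPS replicate 3 the count was 2, and without BHLHE40-Fl-labelled LPS replicate 2 it was 1. The summed value of the 7 genes overlapped, at 112310 to 121650 against 101290 to 123220. Replicate 1 lay near the Lyz2Cre values in these genes. The other 6 mitochondrially encoded genes were listed at 0 in all 6 LPS libraries, although every cell uses them. TCA cycle genes had 8 of 22 higher and 9 lower (median 0.03), but 11 higher and 1 lower with equal totals (median 0.31), and 5 higher without Lyz2Cre LPS replicate 2 or BHLHE40-Fl-labelled LPS replicate 3. Of 35 lysosomal genes 22 were lower and 3 higher (median -0.30, and -0.02 with equal totals, under which 13 were lower and 8 higher), with the protease Ctsc at 61309, 70023 and 67080 against 13884, 13180 and 13153. Gpnmb, a glycoprotein of phagocyte lysosomes, was not called, at 734640, 742280 and 741760 against 722270, 690160 and 653310. The autophagy receptor Sqstm1, a target of NRF2, was 3.77-fold lower, at 71554 to 74375 against 19153 to 19372. Of 21 ER chaperone genes 16 were lower and 2 higher (median -0.35), and with equal totals 5 were lower and 4 higher (median -0.06). Ribosomal protein genes had 9 of 75 higher and 2 lower (median 0.08), 26 higher and 0 lower with equal totals (median 0.37), and 9 lower without BHLHE40-Fl-labelled LPS replicate 1. These genes have many near copies and are uncertain. The list of ATF4 stress and serine pathway genes had 5 of 21 higher and 5 lower (median 0.11), close to the 19.7% and 22% over all genes. With equal totals 12 were higher and 3 lower (median 0.39). The summed value of the 21 genes was 92798 to 97293 against 64942 to 67031. Phgdh of serine synthesis (2.54-fold) and Slc7a5 of amino acid uptake (1.99-fold) were higher.

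More cell cycle genes were higher than lower. Of 44 measured genes 15 were higher and 4 lower (median 0.20, and 0.49 with equal totals, under which 25 were higher and 0 lower). Without Lyz2Cre LPS replicate 1, 2 or 3 the lower genes numbered 2, and without BHLHE40-Fl-labelled LPS replicate 1 there was 1. Mki67, the proliferation marker, stood at 1303, 1197 and 1240 against 2070, 2317 and 2113, and the cyclin Ccnd2 at 2426, 2746 and 2958 against 7590, 9132 and 8683. The replication helicase gene Mcm4 was 2-fold higher and Ccna2 2.27-fold higher. The cell that carried these transcripts is not resolved in bulk RNA. In the same libraries Cdkn1c, a cyclin-dependent kinase inhibitor that holds cells out of the cycle (ENSMUSG00000037664, chromosome 7 from 143458339 to 143461050, minus strand, GRCm38), stood at 153, 181 and 180 against 10772, 10483 and 10756. It was 62.3-fold higher (log2 difference 5.96 ± 0.08, limma adjusted p = 8.29e-18). Among cell death genes the survival gene Bcl2 was 5.93-fold lower and the pro-apoptotic Bcl2l11 2.39-fold higher.

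Clock and E-box genes, to which BHLHE40 belongs, were called in both directions. Of 18 clock genes 5 were higher and 5 lower (median -0.12), and with equal totals 8 were higher and 4 lower (median 0.16). Over all 18293 genes 19.7% were higher and 22% lower, so calls in both directions were not particular to the clock and E-box genes. The repressor Per2 stood at 111, 88.3 and 107 against 14, 23 and 21.3, and Rora was 2.07-fold lower. Nr1d2, which encodes REV-ERB beta, stood at 295, 251 and 294 against 764, 777 and 749. Bhlhe41, the closest relative of BHLHE40, stood at 4367, 3433 and 4129 against 2000, 2927 and 2780, 1.55-fold lower (log2 difference -0.64 ± 0.12, limma adjusted p = 0.000248). Of 27 E-box binding factors 8 were lower and 7 higher (median 0.03), but with equal totals 5 were lower and 13 higher (median 0.32). The MAX partner Mxd1 stood at 6628, 6502 and 7327 against 1435, 2608 and 2422. Mycl, another MAX partner, went the other way, at 79.2, 80 and 88.7 against 460, 310 and 401, and Id1, an inhibitor of helix-loop-helix factors, was 4.73-fold higher.

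Among the largest lower differences outside the lists of other cell types were Hsd11b1, Orm1, Fxyd2, Hp, Fpr1, Mmp2, Lox and Tgfbi. Lox, which crosslinks collagen, stood at 13612, 12066 and 12705 against 215, 190 and 293, 55-fold lower. Mmp2, a gelatinase, and Tgfbi, a matrix protein that TGF-beta induces, were 57.5-fold and 55.4-fold lower. These matrix genes went against the mesothelial and connective tissue list. The formyl peptide receptor genes Fpr1 and Fpr2 stood at 6115 to 6544 and 9710 to 10726 against 87.8 to 119 and 680 to 741. Hsd11b1, which regenerates active glucocorticoid, was 275, 384 and 316 against 1.2, 1.5 and 0, and the acute-phase gene Orm1, a member of a family of near copies, was 138-fold lower. Astn2 and Tmeff1 were also among them.

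The largest higher differences included genes of epithelia. Dsg2, a desmosomal cadherin, stood at 1.4, 2.8 and 0 against 233, 325 and 306, and Cxadr, a tight junction protein and virus receptor, at 4.2, 8.3 and 1.6 against 456, 494 and 505. Clu, a secreted chaperone, stood at 23.6, 56.6 and 24.9 against 1963, 2630 and 2411. These genes were absent or low in the Lyz2Cre LPS libraries, and which cells held their RNA was not tested. Steap4, a metalloreductase, was 9.7 to 18.7 against 798 to 955. Nfe2l3 and Clca3a2 were at 0 in all 3 Lyz2Cre LPS libraries and at 169 to 203 and 118 to 143 in the others. The rule admitted both through the BHLHE40-Fl-labelled LPS libraries alone, so they had to differ. Hamp, the iron hormone hepcidin, was 1.6 to 8.3 against 69 to 77.6, and was at 0 in all 6 controls. Among genes with a mean of at least 10000 in the higher group Marcks (2.92-fold), Mamdc2 (3.19-fold), the aminopeptidase Anpep (2.6-fold) and Ahnak (2.48-fold) were higher.

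The same label contrast without LPS used 6 other libraries, so the group means share no samples. Both contrasts took their spread from 1 model over all 12 libraries, so their calls are not independent. Without LPS 2892 of the 18293 genes were called higher (15.8%) and 3318 lower (18.1%). Of the genes higher with LPS, 1638 were also higher without it, which is 45.4% of the first list and 56.6% of the second. Of the genes lower with LPS, 2074 were also lower without it (51.5% and 62.5%). A further 209 of the genes higher with LPS were lower without it, and 209 of those lower with LPS were higher without it. The difference between the label effects with and without LPS, the interaction, was called for 3786 genes (20.7%). Arg1, Pf4 and Mmp8 show the shared part, with log2 differences of -4.69, -5.54 and -6.12 with LPS and -4.88, -5.48 and -6.11 without. Nos2 shows a difference that narrowed, at -3.81 with LPS and -9.14 without, where its mean was 777 in Lyz2Cre controls and 0.533 in the others. Il1b and Il12b show a difference that turned, from -6.49 and -3.90 without LPS to 1.55 and 1.95 with it.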

How the data were processed

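Total RNA of the peritoneal macrophages was sequenced on Illumina libraries, per the labels' protocols. The submitters' processing notes name mm10, STAR, Cufflinks and Cuffdiff without role, order or version, and no source used here gives the read counter, its annotation or the strand setting. The authors deposited a signal. By its values each entry is a whole number of reads over a library factor, given to 1 decimal, since 100% in each library were multiples of a common step within 0.06. In the LPS libraries 1 read is worth 1.17 to 1.56, so a value of at least 1 there is at least 1 read.

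Across the 12 libraries 20419 genes reached 1 in 3 or more. On log2(value + 1) a limma (3.58.1) trend model with group means was fitted, without rescaling or block, and p-values were adjusted over all 20419 genes. A gene was called below an adjusted p of 0.05. Log2 differences are on the log2(value + 1) scale, so those of low genes are understated. A fold is the ratio of 2 group means. Where a group is at 0, 3 reads for the whole group set a lower bound, which covers counting error only. As alternatives, edgeR (4.0.16) and DESeq2 (1.42.0) were run on the recovered read counts, not on deposited counts. The model had been planned for normalized values and was tested on simulated data.

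Named genes were taken by rule: a fixed set, the largest called differences without overlap between groups (12 per direction with a mean of at least 100 and 8 with at least 10000), and up to 4 per list, called ones first. Some further list members were named after their values were seen. The part, its gene lists and the tests were chosen with earlier results of these data known. Replicate pairs of Lyz2Cre LPS gave chi-square values per degree of freedom of 7.92 to 11.8, and those of the other label 36.7 to 79, above sampling noise, so each library counted once.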

Additional observations from a re-analysis of the deposited data

Results flagged for a closer look

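The difference between the label effects with and without LPS was itself called by limma for 3786 of the 18293 genes, and for 116 of the 206 genes named in the report. Of these genes, 18 were called in opposite directions with and without LPS. The values given are the difference with LPS minus the difference without it, on the log2 scale. Cytokine and chemokine genes gave 8.03 for Il1b, 7.72 for Ccl22 (whose call with LPS was lost with a pseudocount of 0.1), 5.85 for Il12b, 2.07 for Il1a and 1.47 for Csf1. Il10 gave -4.1, and it was the gene that was higher without LPS and lower with it. The surface gene Icam1 gave 3.31, tissue factor F3 gave 1.81 and Marcks, an intracellular protein kinase C substrate, gave 2.34, and the prostaglandin E2 receptor gene Ptger4 gave 2.01. Regulators gave 3.58 for Ciita, 3.45 for Cish, 3.08 for Nr4a3, 2.1 for Bcl3 and 1.59 for Stat5a. The cell cycle genes gave 3.11 for Ccnd2 and 1.65 for Mki67, and the guanylate-binding protein gene Gbp2b gave 4.79. In the genes other than Il10 the BHLHE40-Fl-labelled libraries were lower without LPS and higher with it.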

How the results depend on the processing

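Of the 189 called genes named in the report, 156 kept their call and direction under all 21 settings tried. Some named genes that were not called were called under other settings. Hk3, Il7r, Myd88, Nfkbia and Spi1 were called higher with equal totals and with quantile normalization, and Il18 and Txn1 with equal totals. Cd68 and Cxcl1 were called lower with the LPS libraries fitted alone. With the replicate number as a block, which treats same-numbered libraries as pairs, 3471 genes were higher, 3886 lower and 3483 called for the interaction, and no named gene's call changed. Same-numbered LPS libraries of the labels did not deviate together (correlations of -0.041, -0.011 and -0.005), and not every library correlated best with its own number. Control libraries were not compared with LPS libraries in this way, so whether the numbers pair samples is not settled. Equal library totals gave 6204 higher and 2237 lower, and a minimum log2 difference of 1 gave 1570 higher, 1591 lower and 1452 for the interaction. Other alternatives kept the 3 counts within 1.5 times. Leaving out 1 LPS library at a time gave 3066 to 3528 higher, 3490 to 3965 lower and 3220 to 3975 for the interaction. Signs of small differences turned, and of the called genes named this applied to Parp9 and Tlr4. With equal totals the log2 differences were 0.14 for Bhlhe40, 0.10 for Cd68, 0.18 for Gpnmb, 0.063 for Il1rn, 0.27 for Irf7, 0.21 for Spi1 and 0.0402 for Tlr4. With quantile normalization they were 0.0035 for Bhlhe40, 0.13 for Cd68, 0 for Gpnmb, 0.16 for Ifit1, 0.074 for Il1rn, 0.31 for Irf7, 0.0077 for Parp9 and 0.18 for Spi1. Irf7 stood at 0.018 with TMM scaling and at 0.015 with edgeR. With 1 LPS library left out at a time it ranged from -0.0962 to 0.027, Nfkbia from -0.058 to 0.089 and Txn1 from -0.015 to 0.043. The cause was not tested. Genes with few reads, such as Tcf7 or Cd3e, are limited by depth, and near-identical copies by how reads were counted.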
